A study of Arabidopsis thaliana with 15 samples.

Results

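The core genes of the circadian clock of Arabidopsis thaliana were followed through maps of both Polycomb histone marks in wild-type seedlings. The set was listed by locus and no measured value entered the rule, but earlier results of these data were known when it was chosen. It comprised CCA1 (AT2G46830), LHY (AT1G01060), PRR9 (AT2G46790), PRR7 (AT5G02810), PRR5 (AT5G24470), PRR3 (AT5G60100), TOC1 (AT5G61380), ELF3 (AT2G25930), ELF4 (AT2G40080) and LUX (AT3G46640). These were 10 of the 27444 protein coding genes on the nuclear chromosomes. The series profiled H2AK121ub in wild type (strain Col-0), emf1 and ring1ab, and H3K27me3 in the same genotypes and in lhp1. The method was chromatin immunoprecipitation followed by sequencing (ChIP-seq). The study also covered other Polycomb mutants, chromatin accessibility and gene expression, which were not used here. All seedlings of this series were 10 days after germination (DAG) and had been grown on MS agar under long days. The series held 15 libraries, of which 14 formed 7 ChIP groups of 2 replicates and 1 was a wild-type input. The material analysed here was 1 list of wild-type consensus peaks for each mark, in which the authors had already combined the replicates. The study's methods also describe joining wild-type data of 7 and 10 DAG. Whether these lists include the earlier age is not settled. Libraries of the mutants were not used here. The H2AK121ub list held 16310 peaks with a median length of 978 bp that covered 20.3% of the nuclear genome, and the H3K27me3 list held 4367 peaks with a median length of 2925 bp that covered 15.9%. The lists gave positions alone, so no gene had a signal level, a replicate error or a read depth. A gene without a peak was therefore a gene without a call, which is weaker than a gene shown to lack the mark. The seedlings were harvested whole, so a peak in all cells and a peak in part of the cells cannot be told apart. The labelled tissue was not checked against marker genes, as the lists hold no expression values. The time of day at harvest is not given in the sources used here.

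The plant clock is built from transcription factors that repress one another in turn over the day. CCA1 and LHY are MYB-type repressors that accumulate around dawn, the pseudo-response regulators (PRRs) follow as a wave of repressors from morning to evening, and ELF3, ELF4 and LUX form the evening complex, which represses its targets at night. Polycomb repressive complex 1 monoubiquitinates histone H2A, which gives H2AK121ub in Arabidopsis, and Polycomb repressive complex 2 trimethylates lysine 27 of histone H3, which gives H3K27me3. H3K27me3 is best known in this plant from genes held silent through development, such as floral and seed regulators.

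Most of the clock genes carried H2AK121ub without H3K27me3, which was also the largest class over all protein coding genes. Following the study, a gene carried a mark when at least 1 bp of a peak fell in the annotated gene or in the 750 bp before the transcription start site (TSS). By this rule 8 of the 10 genes carried H2AK121ub, against 68.1% of all protein coding genes, and 0 of 10 carried H3K27me3, against 29.2%. All 8 marked genes were thus only-H2AK121ub genes, a class that held 43.9% of all protein coding genes. In PRR7 and PRR3 the peak lay upstream only. With the gene body alone, 6 of the 10 genes carried H2AK121ub, against 61.1% of all protein coding genes. There were 0 genes with both marks (H2AK121ub/H3K27me3), against 24.2% of all genes, and 0 only-H3K27me3 genes, against 4.93%. TOC1 and ELF3 were the 2 genes with neither mark, a class that held 26.9% of all genes. The members are not replicates of one another and the lists carry no replicates, so these counts are descriptions beside the genome-wide shares and no test was made.

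**Figure D1:**
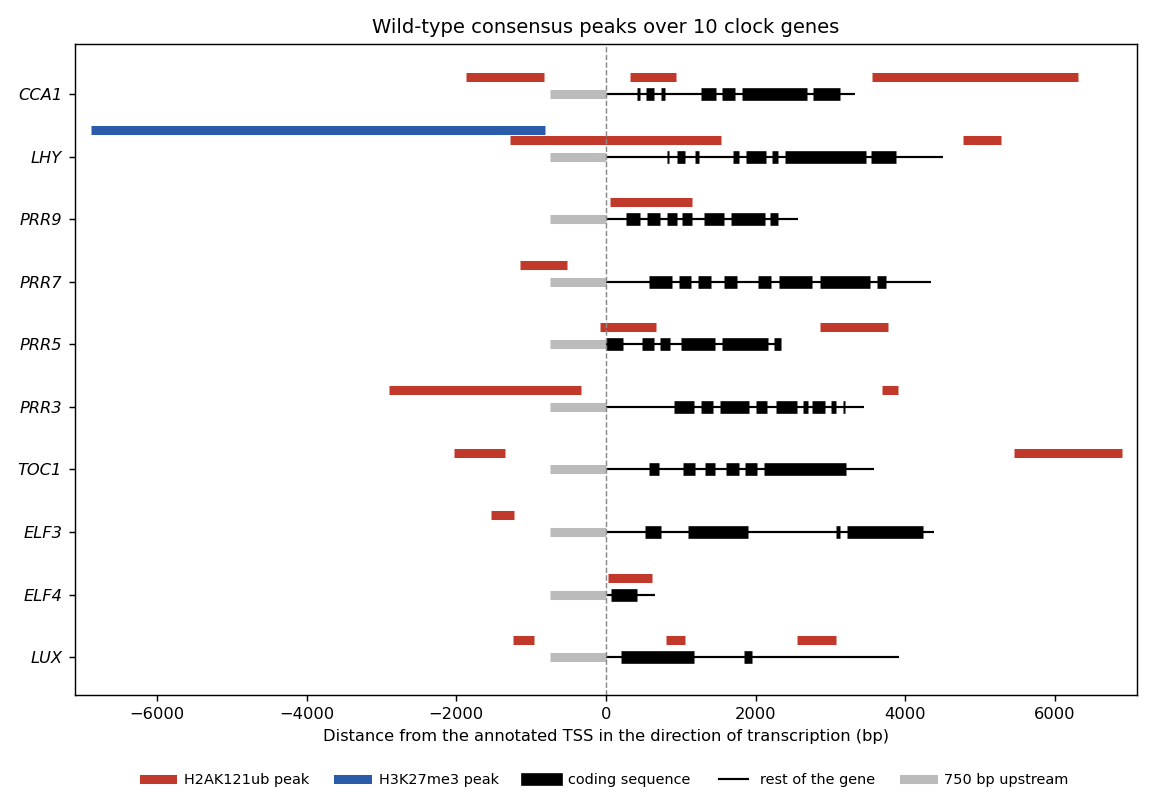
Each row is 1 of the 10 clock genes, drawn to scale along the distance from its annotated TSS in bp in the direction of transcription, with coding sequence as black boxes, the rest of the gene as a thin line and the 750 bp upstream in grey. Red bars are H2AK121ub peaks and the blue bar is an H3K27me3 peak, shown where they reach the gene or the 2000 bp on either side. Red bars lie on the body of 6 genes, and the only blue bar ends 810 bp before the TSS of LHY.

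Short motifs in the promoters are shown first. Their positions, like those of the peaks, are given relative to the TSS. The evening element, AAAATATCT on either strand, is the sequence that CCA1 and LHY bind in evening-expressed genes. It occurred between 250 bp before and 50 bp after the TSS of 4 of the 9 genes whose promoters were read, against 2.82% of the promoters of all 27444 protein coding genes read in the same window. The capitals mark the element in the following windows, each read 5′ to 3′ on the strand of its gene in TAIR10. The first window is chr5:24674802-24674830 on the plus strand, the second is chr5:8358715-8358743 on the minus strand, the third is chr2:19232623-19232651 and the last is chr3:17182979-17183007, both on the plus strand.
TOC1 evening element: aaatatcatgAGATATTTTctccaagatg
PRR5 evening element: gattttttctAGATATTTTcttttctcca
PRR9 evening element: ttctctgagaAGATATTTTcgtggttgtg
LUX evening element: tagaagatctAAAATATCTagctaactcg
In TOC1, PRR5 and PRR9 the element was read on the strand opposite to the gene, and in LUX on the same strand. It began 151 bp before the TSS of TOC1, 187 bp before that of PRR5 and 53 bp before that of LUX, and 26 bp after that of PRR9. The annotated start of PRR5 is its first coding base, so distances in PRR5 are counted from there. None of the 4 elements lay under an H2AK121ub peak, and 3 of these genes (PRR5, PRR9 and LUX) carried the mark elsewhere in the gene. Over all protein coding genes, 25.0% were under H2AK121ub at 200 bp before the TSS and 34.2% at 50 bp after it. Of the 250 bases before the TSS, 0 were under a peak in TOC1, PRR9 and LUX, and 75 in PRR5.

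The G-box, CACGTG, which reads the same on both strands and is bound by bHLH and bZIP factors, was present in the same window of 5 of the 9 genes, against 7.68% of all promoters. It is shown for each of them, since these are the morning genes and LUX and since 1 copy lay under a peak. The capitals mark the G-box, and the sequences are those of chr2:19245386-19245415 (plus strand), chr1:37934-37963 (minus), chr5:642214-642243 (minus), chr2:19232351-19232380 (plus), chr2:19232423-19232452 (plus) and chr3:17182837-17182866 (plus), in this order.
CCA1 G-box: tagtgtatcagaCACGTGtcgacaaactgg
LHY G-box: ctacaatatcacCACGTGtcgatctgcgat
PRR7 G-box: tacccaccattaCACGTGtcagttcaaaaa
PRR9 distal G-box: acaatagaaaccCACGTGtcatccacatga
PRR9 proximal G-box: ttaggttaatgaCACGTGttaaggtggacc
LUX G-box: ctcttttcactcCACGTGgctccatcttac
The LHY copy, which began 80 bp before the TSS, was the only motif match of any kind in the 9 promoters that lay under an H2AK121ub peak. Few matches could do so, since only LHY (250 bp) and PRR5 (75 bp) had H2AK121ub in the 250 bp before the TSS. Position 100 bp upstream was under H2AK121ub in 25.9% of all protein coding genes. The copies of CCA1 and LUX both began 193 bp before the TSS, that of PRR7 began 201 bp before it, and those of PRR9 began 244 and 172 bp before it. Of the other sequences searched on both strands, the LUX binding site GATACG occurred in ELF3 (5.54% of all promoters), its variant GATTCG in PRR9 (9.58%), the CCA1-binding site AAAAATCT in PRR5 (7.88%), and both the telobox AAACCCTA (6.22%) and the GA repeat GAGAGAGA (8.38%) in 0 of the 9 genes. PRR3 held none of the letters searched. A match in the DNA is a description and not a site shown to be bound, and none of the matches overlapped another.

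Whole promoters are shown for the genes with neither mark, TOC1 and ELF3. PRR7 and PRR3 also had no H2AK121ub in the body but carried it upstream. Each run is the 250 bases before the TSS. They are chr5:24674713-24674962 and chr2:11058694-11058943, both on the plus strand. The capitals mark the evening element in TOC1 and the LUX binding site in ELF3, each read on the opposite strand.
TOC1 promoter: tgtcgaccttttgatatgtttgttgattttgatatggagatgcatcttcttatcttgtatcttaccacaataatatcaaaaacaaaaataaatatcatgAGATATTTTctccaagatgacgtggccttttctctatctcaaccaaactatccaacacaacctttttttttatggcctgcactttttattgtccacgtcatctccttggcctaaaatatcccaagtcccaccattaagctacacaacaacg
ELF3 promoter: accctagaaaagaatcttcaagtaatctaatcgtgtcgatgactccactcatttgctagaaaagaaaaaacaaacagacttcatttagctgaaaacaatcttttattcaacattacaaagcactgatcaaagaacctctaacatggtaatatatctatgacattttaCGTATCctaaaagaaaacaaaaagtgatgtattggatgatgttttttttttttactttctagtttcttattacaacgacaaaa
The guanine and cytosine (GC) content of these runs was 35.2% in TOC1 and 29.2% in ELF3. Neither run overlapped another annotated gene, and 0 of their bases lay under an H2AK121ub peak.

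The morning genes CCA1 and LHY, partly redundant MYB repressors, both carried H2AK121ub but in different places. CCA1 (chr2:19245591-19248915, plus strand, 3325 bp) had 1 peak of 609 bp inside the gene, chr2:19245918-19246526, from 327 to 935 bp after the TSS. The peak took 18.3% of the gene body, 0% of the upstream window and 0 of the 3 annotated transcript starts. Of its bases, 213 were coding, 48 were in the 5′ untranslated region, 206 were intronic and 142 were exonic but not coding. It spanned 2 of the 3 annotated transcripts, and the other transcript started downstream of it. LHY (chr1:33365-37871, minus strand, 4507 bp) had instead a peak of 2820 bp, chr1:36332-39151, that ran from 1280 bp before to 1539 bp after the TSS. It took 34.2% of the body (1540 bp), all 750 bp of the upstream window and all 5 annotated transcript starts, and covered 810 bp of 5′ untranslated region, 517 bp of intron and 213 bp of coding sequence. This was a long peak, as 86.2% of all H2AK121ub peaks were as long or shorter, whereas the CCA1 peak was below the median length of the list, with 33.1% as long or shorter.

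LHY was also the member nearest to H3K27me3. A peak of 6067 bp, chr1:38681-44747, ended 810 bp upstream of the LHY TSS, just beyond the 750 bp window, and lay over UMAMIT28 (AT1G01070), the neighbouring gene of the UmamiT transporter family. UMAMIT28 had 90.8% of its body under H3K27me3 and 37.6% under H2AK121ub. The H2AK121ub peak that covered the LHY start reached 708 bp into UMAMIT28, and 471 bp of it overlapped the H3K27me3 peak. With 1500 bp upstream in place of 750 bp LHY would carry H3K27me3 beside H2AK121ub. It would be the only 1 of the 10 genes with H3K27me3, against 32.5% of all genes with an H3K27me3 peak in the body or those 1500 bp. For CCA1 the nearest H3K27me3 peak lay 6.99 kb downstream.

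Of the pseudo-response regulators, PRR9 and PRR5 carried H2AK121ub in the gene, PRR7 and PRR3 upstream only, and TOC1 carried neither mark. PRR9 (chr2:19232607-19235179, plus strand, 2573 bp), the earliest repressor of the wave, had a peak of 1091 bp, chr2:19232660-19233750, from 53 to 1143 bp after the TSS. It took 42.4% of the body and 0% of the upstream window, overlapped all 5 annotated transcripts and was mostly coding (602 bp), with 214 bp of 5′ untranslated region and 189 bp of intron. The evening element of PRR9 shown above ended 34 bp after the TSS, before the peak began. PRR5 (chr5:8356204-8358546, minus strand, 2343 bp), which peaks in the afternoon, had a peak of 748 bp, chr5:8357874-8358621, from 75 bp before to 672 bp after the annotated start. It covered 28.7% of the body and 10.0% of the upstream window (75 bp). The annotated model of PRR5 has no 5′ untranslated region, so its start is the first coding base and the call of a marked TSS rests on that annotation.

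PRR7 (chr5:637681-642030, minus strand, 4350 bp), which follows PRR9 in the wave, had no peak in its body. Its call rested on a peak of 625 bp, chr5:642550-643174, that began 520 bp upstream of the TSS and took 30.8% of the upstream window (231 bp). Of those 231 bp only 4 bp lay outside RHL2 (AT5G02820), the gene on the opposite strand next to it. PRR3 (chr5:24197971-24201415, minus strand, 3445 bp), which modulates the stability of TOC1, likewise had no peak in its body and a peak of 2572 bp, chr5:24201749-24204320, that began 334 bp upstream and took 55.6% of the window (417 bp). That peak spanned the whole of PUM18 (AT5G60110), a divergently transcribed neighbour encoding a Pumilio protein, and 205 of the 417 bp lay between the genes. H2AK121ub in the upstream window but not in the body was seen in these 2 of 10 genes, against 7.04% of all genes. Whether such peaks act on the clock gene, on its neighbour or on neither was not tested.

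TOC1 (chr5:24674963-24678550, plus strand, 3588 bp), the evening repressor of CCA1 and LHY, had no peak in its body or window. The nearest H2AK121ub peak (676 bp, chr5:24672938-24673613) ended 1350 bp upstream of the TSS inside AT5G61370. On the other side a peak of 1444 bp, chr5:24680413-24681856, lay over the 5′ end of AT5G61390, the gene that follows TOC1 tail to tail. The nearest H3K27me3 peak lay 10.1 kb away.

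The evening complex held the gene with the largest share of its body under H2AK121ub, ELF4, and 1 of the genes without either mark, ELF3. ELF4 (chr2:16734294-16734953, minus strand, 660 bp), which encodes a small protein that binds ELF3, had a peak of 585 bp, chr2:16734340-16734924, from 29 to 613 bp after the TSS. It covered 88.6% of the body, including 336 bp of coding sequence, 205 bp of 3′ and 32 bp of 5′ untranslated region. ELF4 is the shortest of the 10 genes, and the peak itself was below the median length of the list, with 31.6% of peaks as long or shorter. In bases under the mark ELF4, with 585 bp, had the least of the 6 genes with a peak in the body. ELF3 (chr2:11058944-11063324, plus strand, 4381 bp), which encodes the scaffold between ELF4 and LUX, had no peak in its body or window, and the nearest H2AK121ub peak was 309 bp long (chr2:11057411-11057719) and ended 1225 bp upstream, outside any gene. The nearest H3K27me3 peak lay 13.7 kb from ELF3.

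LUX (chr3:17183042-17186959, plus strand, 3918 bp), the MYB-like DNA-binding member of the complex, had 2 peaks and 19.3% of its body covered. The first, of 245 bp (chr3:17183848-17184092), lay from 806 to 1050 bp after the TSS, entirely in annotated coding sequence. Exons of all 3 transcripts overlapped it. Only 5.57% of H2AK121ub peaks were as short or shorter. The second, of 513 bp (chr3:17185599-17186111), fell in the 3′ untranslated region of 1 of the 3 transcripts and entirely within AT3G46650, an overlapping gene on the opposite strand. Without the bases shared with that gene, 6.25% of LUX was covered. The short peak is printed below on the plus strand as the one stretch of H2AK121ub that belongs to LUX alone.
LUX coding peak: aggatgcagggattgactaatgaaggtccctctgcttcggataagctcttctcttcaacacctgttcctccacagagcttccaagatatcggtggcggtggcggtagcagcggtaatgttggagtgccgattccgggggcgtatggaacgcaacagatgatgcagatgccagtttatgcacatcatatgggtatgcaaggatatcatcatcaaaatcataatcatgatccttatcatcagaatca
Its GC content was 47.3%, against 39.7% for the whole gene. The whole gene also holds non-coding bases and the peak does not, so these values compare unlike sequence. The peak held 0 matches to the motifs searched in the promoters, so that it is printed without capitals.

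The share of the body under H2AK121ub ranged from 0% in PRR7, PRR3, TOC1 and ELF3 to 88.6% in ELF4. Its median over the 10 genes was 18.8% (quartiles 0 and 32.8%), close to the 15.8% of all protein coding genes (quartiles 0 and 62.7%). A peak lay in the body of 6 of the 10 genes, against 61.1% of all genes. In order of cover, ELF4 exceeded 85.9% of all genes, PRR9 67.9%, LHY 64.0%, PRR5 60.8%, LUX 53.4% and CCA1 52.5%, while 38.9% of all genes had no H2AK121ub in the body. Over the 6 clock genes with a peak in the body the median was 31.4%, against 46.5% over all 16769 such genes. The clock genes were longer than most genes, with a median length of 3516 bp against 2078 bp, and the part of length in this difference was not tested. H3K27me3 cover was 0% in every member, and its median and upper quartile over all protein coding genes were also 0%.

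**Figure D2:**
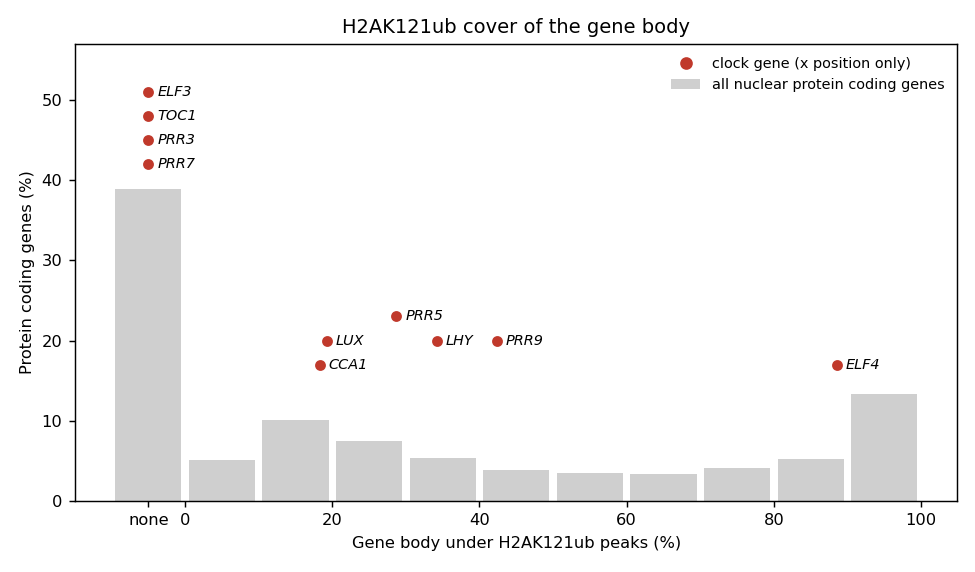
Grey bars give the share of all nuclear protein coding genes (y axis, %) by the part of the gene body under H2AK121ub peaks (x axis, %, in steps of 10, with genes without any cover apart at the left), and red points place the 10 clock genes on the x axis only. PRR7, PRR3, TOC1 and ELF3 sit with the 38.9% of genes without cover, 5 genes lie between 18.3 and 42.4%, and ELF4 lies at 88.6%.

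In 4 of the 6 genes with a peak in the body (CCA1, PRR9, ELF4 and LUX) the first such peak began after the TSS, taken as the start of the annotated gene. This TSS was under H2AK121ub in 2 of the 10 genes (LHY and PRR5), against 30.2% of all genes, and under H3K27me3 in 0, against 17.7%. ELF4 differs by the start that is read, since its only annotated transcript begins downstream of the gene start and inside the peak. Position 400 bp after the TSS was under H2AK121ub in 5 of the 10 genes (CCA1, LHY, PRR9, PRR5 and ELF4), against 50.5% of all genes, and from 1600 bp after the TSS onwards the profile, read up to 2000 bp, held 0 of the 10. Position 1000 bp upstream was also under H2AK121ub in 5 of the 10 genes, against 24.9% of all genes, and 200 bp upstream in 1 of 10, against 25.0%. The 5 genes with an upstream peak there were CCA1, LHY, PRR7, PRR3 and LUX, and each of those peaks overlapped a neighbouring gene. At CCA1 a peak of 1049 bp lay entirely within PSI-P (AT2G46820). With a window of 1500 bp upstream, all 10 genes had H2AK121ub, against 73.1% of all genes. Of all marked body bases (5256 of 33090 bp, 15.9%), 38.0% were coding, 23.0% outside exons, 21.0% in 5′ and 13.7% in 3′ untranslated regions. By class, 27.9% of the 5′ untranslated bases were marked, against 12.3% of the coding bases. LHY gave 810 of the 1104 marked 5′ bases, so this contrast rested mostly on 1 gene. No share over all protein coding genes is given for these classes.

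**Figure D3:**
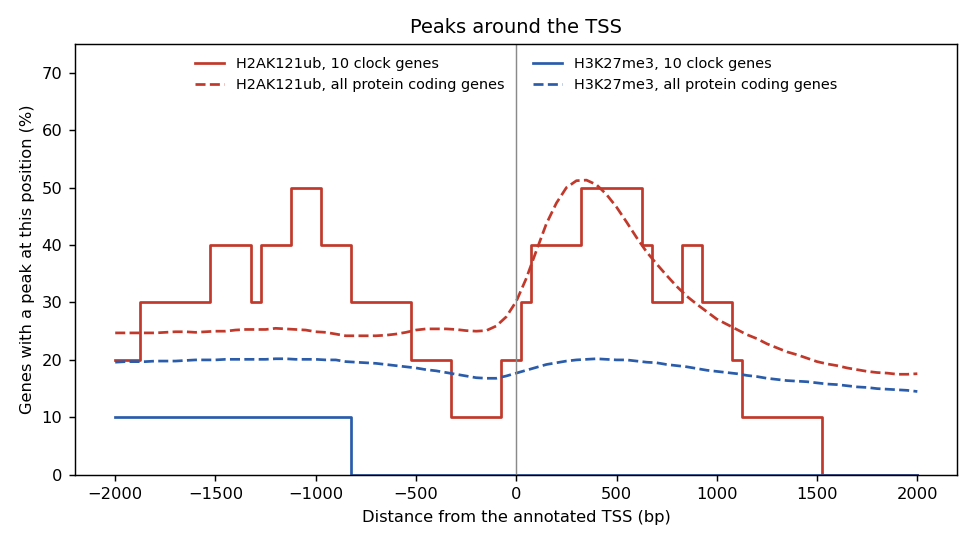
The y axis gives the share of genes (%) with a peak at each distance from the annotated TSS (x axis, bp, upstream negative), for H2AK121ub in red and H3K27me3 in blue, with the 10 clock genes as solid and all protein coding genes as dashed lines. The solid red line is at 20% at the TSS and at 50% 400 bp downstream, near the dashed line there, and the solid blue line is above 0 only where LHY reaches the upstream H3K27me3 peak.

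H2AK121ub around the clock genes was about as frequent as elsewhere. Of the 20 nearest non-overlapping protein coding neighbours, 1 on each side of each gene, 14 carried H2AK121ub, beside 68.1% of all protein coding genes. Of these, 13 were only-H2AK121ub genes (beside 43.9% of all protein coding genes) and 1 (UMAMIT28) carried both marks (beside 24.2%). The other 6 neighbours carried neither (beside 26.9%). UMAMIT28 was thus the only neighbour with H3K27me3, a mark carried by 29.2% of all protein coding genes. Neighbours and members share peaks, so these counts are not independent of those above. Within the gene and 10 kb on each side, H2AK121ub took from 4.86% of the bases at ELF3 to 39.9% at PRR9, around the 20.3% of the whole nuclear genome, and H3K27me3 from 0% at PRR5, TOC1, ELF3 and LUX to 24.8% at LHY, beside 15.9% of the genome. The distance from the gene to the nearest H3K27me3 peak had a median of 8030 bp (range 810 to 18138 bp), against 7356 bp over the 19435 protein coding genes without H3K27me3 (quartiles 2998 and 15686 bp). CCA1 and PRR9 lie 10411 bp apart on chromosome 2 with 3 protein coding genes between them. The interval held 2 H2AK121ub peaks over 24.9% of its bases and no H3K27me3. A long H3K27me3 domain flanked the pair on each outer side, 1 of 22055 bp that ended 5.36 kb before PRR9 and 1 of 10468 bp that began 6.99 kb after CCA1.

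A further 31 clock genes were read by the same rule. Of these, 20 were only-H2AK121ub genes (64.5%, beside 43.9% of all protein coding genes) and 8 carried neither mark (25.8%). There were 2 H2AK121ub/H3K27me3 genes (6.45%, beside 24.2%) and 1 only-H3K27me3 gene (3.23%, beside 4.93%). The same shares of all genes apply to the family counts below. H2AK121ub was thus present in 22 of 31 (71.0%), near the 68.1% of all protein coding genes, and the share with neither mark was near the 26.9% of all genes. H3K27me3 was present in 3 of 31 (9.68%), beside 29.2% of all genes. Among the 8 genes listed as REVEILLE genes, MYB factors related to CCA1 and LHY, 6 were only-H2AK121ub genes, RVE4 carried neither mark and AT5G52660 was the only-H3K27me3 gene, with 34.9% of its upstream window and 0% of its body covered. The call for AT4G01280 rested on 1 bp of its upstream window. RVE2 was wholly covered by H2AK121ub (100% of the body). RVE4, an activator of evening genes, lies 6617 bp from PRR7 on chromosome 5.

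Of the 4 LNK genes, which encode coactivators that work with REVEILLE proteins, LNK1 and LNK3 carried neither mark and the other two were only-H2AK121ub genes. GI, which stabilises the F-box photoreceptor ZTL, and ZTL itself carried neither mark, whereas FKF1 and LKP2, the other members of the ZTL family, were only-H2AK121ub genes. Of the 6 paralogs of evening complex genes, 3 were only-H2AK121ub genes, ELF4-L2 and ELF4-L3 carried neither mark, and ELF4-L1 carried both. ELF4-L1 resembled ELF4 in having 86.2% of its body under H2AK121ub, but had H3K27me3 over 71.2% of its upstream window. Of the 9 remaining genes, 7 were only-H2AK121ub genes, LWD1, a WD-repeat protein that promotes CCA1 expression, carried neither mark, and GRP7, an RNA-binding protein whose transcript cycles under the clock, carried both, with 92.5% of its body under H2AK121ub and 30.5% under H3K27me3. The median H2AK121ub cover of the body over the 31 genes was 19.4% (quartiles 0 and 51.9%), beside 18.8% for the 10 core genes. The TSS was under H2AK121ub in 7 of the 31 genes (22.6%), beside 30.2% of all genes, and under H3K27me3 in 0, beside 17.7%.

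**Figure D4:**
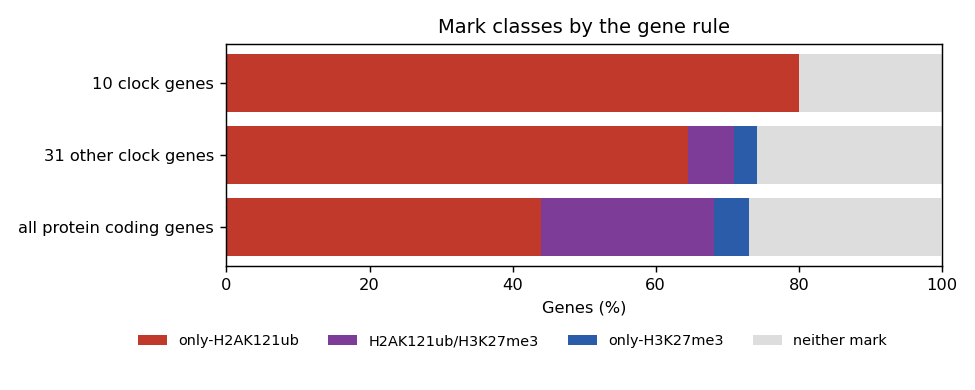
Stacked bars give the share of genes (x axis, %) in each of 4 classes, only-H2AK121ub, H2AK121ub/H3K27me3, only-H3K27me3 and neither mark, for the 10 clock genes, the 31 other clock genes and all 27444 nuclear protein coding genes. The only-H2AK121ub part takes 80.0, 64.5 and 43.9% of the bars, and the first bar has no part with H3K27me3.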

How the data were processed

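The authors deposited 2 lists of peak positions (chromosome, start and end, with no score or signal), 1 for each mark in wild type. Per the study's methods, the authors aligned the reads with Bowtie to TAIR10. MACS2, with its default options and the input as control, then gave peaks of each replicate, of which the shared regions were kept. The methods also describe joining wild-type data of 7 and 10 DAG. Whether the deposited lists include the earlier age is not settled. Tool versions are not given in the sources used here. The methods state an approximate number of reads per sample, which was not used, and the lists themselves hold no read counts.

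Positions, given from 1, were set against the RefSeq copy of TAIR10 and its annotation, whose nuclear chromosomes contain every peak. All 10 loci and the 31 further loci matched by locus. Bases under peaks were counted with Python 3.11.15 and NumPy 2.4.6, checked on simulated peaks, and figures drawn with matplotlib 3.10.9. Sequences came from the RefSeq genome, and motifs were searched by exact match on both strands. The members and lists were chosen with earlier results of these data known. All members are named. Of the further genes, those with H3K27me3, those with neither mark and the 3 with the largest H2AK121ub cover (RVE2, GRP7 and ELF4-L1) were named by rule. FKF1, LKP2 and AT4G01280 were named after their values were seen. Promoters were to be shown for the genes with the most and the least cover. The tie at 0% was broken by taking those with neither mark, and 1 promoter is not reported here, so that motifs were counted over the other 9. Alternatives changed the window, the overlap, the peaks used, the gene model and the genes of the background.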

Additional observations from a re-analysis of the deposited data

How the results depend on the processing

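The lists hold 1 consensus per mark, so depth, replicate error and signal strength could not be weighed, and a missing peak is no more than a missing call. No paired analysis was possible because the replicates were combined before deposit. The bound was 1.5 times the reported count for counts, and for medians the standard deviation over the 10 genes, which is wide. Of 59 combinations of a result on the 10 genes and an alternative, 53 stayed within the bound and 6 did not. Dropping peaks under 200 bp could change no call, as the shortest peak on a member had 245 bp. The total is therefore no measure of robustness. With 1500 bp upstream, genes with H3K27me3 and genes with both marks each came to 1 (LHY), and genes with neither mark to 0. With this window 32.5% of all protein coding genes had H3K27me3. With the gene body alone, and with the coding span as gene body, genes with neither mark came to 4 (TOC1, ELF3, PRR7 and PRR3). With the TSS widened by 100 bp on each side, 4 genes had it under H2AK121ub (LHY, PRR5, PRR9 and ELF4). The widened TSS was read for the members alone, but position 100 bp after the TSS was by itself under H2AK121ub in 39.0% of all genes. No share over all genes is given for neither mark or both marks under the other windows. The median H2AK121ub cover was 16.7% with the coding span and 12.3% when bases lying in another gene were not counted, an alternative chosen after seeing the data. Over the backgrounds tried (all 37899 annotated nuclear genes, 23093 protein coding genes of the members' length range, or each chromosome left out), H2AK121ub took 58.0 to 70.7% and H3K27me3 26.1 to 30.1% of genes.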
